A study of Mus musculus with 14 samples.

Results

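The data described here are the change in liver gene expression that female and male mice without a working Abcb11 gene had in common. The protein made from Abcb11, the bile salt export pump, secretes bile salts from hepatocytes through the canalicular membrane into bile. Counts from 11 of the 14 libraries of the series entered, and 3 libraries of tumour tissue were left out. The groups were Abcb11-/- (KO) females (n = 3, tissue labelled as non-tumour, from mice of the group that also gave the tumour libraries), KO males (n = 3, labelled as liver, with no statement on tumours), WT females (n = 2, numbered 2 and 3, although 3 mice in each group are described) and WT males (n = 3). All animals were C57BL/6J mice, an inbred laboratory strain, aged 52 weeks, and total RNA of frozen liver was sequenced. The labels name no Cre or tissue restriction for the knockout, and the deleted segment is not given in the sources used here. One fit took genotype as the tested term and sex as a covariate, over 17389 genes that passed the low-count filter of 54532 in the table. The question of this fit was which genes differ between KO and WT liver irrespective of sex. The labels do not say how the mice were related or when they were sampled, so p-values measure the spread between these samples, which may in part be technical.

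Bile salts are made from cholesterol in hepatocytes, secreted by the export pump, reabsorbed in the intestine and taken up again from portal blood. When they build up inside hepatocytes they are sensed by nuclear receptors, among them FXR (Nr1h4), PXR (Nr1i2) and CAR (Nr1i3). These receptors are known to lower synthesis and uptake, to raise basolateral export and to induce cytochrome P450 enzymes and conjugating enzymes. NRF2, a transcription factor of oxidative and electrophile stress, is known to induce glutathione transferases and quinone reductases. PPAR-alpha is known to drive fatty acid oxidation in liver.

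Some libraries stood apart in ways that touch the results. Library totals of the 14 libraries ran from 14745140 to 19480538 counts. KO males had 18862 to 21027 genes with at least 1 count, against 15308 to 17520 genes in WT males. Genes with exactly 1 count numbered 788 to 1850 in KO males and 205 to 242 in WT males, and 1498 to 1750 in KO females and 926 to 1538 in WT females. Among the tested genes 875 had no count in any WT male, against 101 with none in any KO male. WT males thus held few low counts at all, which stands beside every level of 0 given for them below, and its part in the results was not tested. For a clock score, the mean over 4 morning genes was subtracted from the mean over 8 evening genes, both in log2 CPM. It was −0.29, 3.12 and 4.86 in KO females and 3.45, 2.70 and 3.15 in KO males, against 1.73 and 1.27 in WT females and −1.86, −1.42 and −1.52 in WT males. The score separated KO from WT males completely and overlapped in females, so in males genotype and clock phase cannot be told apart. Mitochondrial genes took 15.7% to 19.1% of the counts in KO female 1, KO female 3 and KO male 3, against 33.7% to 35.7% in the other KO libraries and 28.6% to 42.2% in the WT libraries, and the part of this share in the results was not tested. WT male 3 was high in lymphocyte genes: its mean log2(CPM + 1) over 12 B and plasma cell genes was 7.68, against 2.61 to 5.07 in the KO libraries and 2.11 to 3.88 in the other WT libraries. Over 14 T and NK cell genes its mean was 3.42. The KO libraries stood at 0.90 to 1.57 there, and the other WT libraries at 0.62 to 1.14.

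Abcb11 itself (ENSMUSG00000027048, chromosome 2, 69238282 to 69342616, GRCm38) stood at 21, 35.7 and 17.7 CPM in KO females and 76.2, 61.8 and 103 CPM in KO males, against 268 and 486 CPM in WT females and 307, 322 and 298 CPM in WT males. Every KO library lay below every WT library. Mean levels were 24.8 ± 9.56 CPM in KO females and 80.3 ± 20.8 CPM in KO males, against 377 ± 154 CPM in WT females and 309 ± 12.2 CPM in WT males (SD, n = 3, 3, 2 and 3). CPM stands for library-size scaled counts, with library sizes adjusted by trimmed means (TMM). The pooled log2 fold change, KO over WT, was −2.85 ± 0.39 (SE, edgeR adjusted p = 0.00131). The standard error given with each log2 fold change is its size divided by the square root of the F statistic. Counts on the gene remained in every KO library, at 395 to 605 in females and 850 to 1832 in males. The fall was larger in females: the change in females minus that in males was −1.98 ± 0.48 in log2 units (edgeR adjusted p = 0.0221).

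Pooled over the sexes, 762 genes rose and 475 fell in KO liver at an edgeR adjusted p under 0.05. That was 4.38% and 2.73% of the 17389 genes tested, 7.11% together. The share of rising genes depended on the filter: with a mean of at least 5 CPM required, 694 genes rose and 766 fell of 10183, and with 1 CPM required in 3 libraries, 682 rose and 647 fell of 14892. Of the genes that rose 190 had a log2 fold change of at least 2, and of those that fell 78 had one of −2 or less. The median size of change was 1.31 among genes that rose and 1.08 among genes that fell, on the log2 scale. Libraries of the 2 genotypes did not overlap within either sex for 647 of the 762 genes that rose and for 386 of the 475 that fell. Over all tested genes 5.89% were higher in KO with no overlap in both sexes and 4.0% were lower. Another 9.22% did not overlap but went opposite ways in the 2 sexes. In females by themselves 23.3% were higher and 27.0% lower without overlap, and in males 23.3% and 12.6%.

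Each sex on its own gave 1061 calls in females (6.48% of 16373 genes) and 2262 in males (15.6% of 14497 genes), in fits that share no library. Among the 14289 genes tested in both sexes 6.73% were called in females and 15.5% in males. The total in females was 16 without WT female 3, 42 without WT female 2, 324 without KO female 1 and 1675 without KO female 2, and in males 874 to 1463 without any 1 library other than WT male 3, and 2825 without that one. Of 510 genes higher in KO females, 126 (24.7%) were also called higher in KO males, where 8.48% of the 14289 genes tested in both sexes were higher. Another 10 of the 510 (1.96%) were called lower in males (0.07% of the genes tested in both sexes had that pair of calls). That 0.07% counts the same 10 genes. The share to set beside 1.96% is the 7.03% of the 14289 genes that were lower in males, which is larger. Of 452 genes lower in KO females 65 (14.4%) were called lower and 71 (15.7%) higher in KO males, where 7.03% of all genes were lower and 8.48% higher. Read from the male side, 126 of 1211 genes higher in KO males (10.4%) were higher in KO females, against 3.57% of all genes. Likewise 65 of 1005 genes lower in KO males (6.47%) were lower in KO females, against 3.16% of all genes. Across the 14289 genes the log2 fold changes of the 2 sexes had Spearman's rho = 0.000755 and Pearson's r = 0.0851, as a description over genes, which are not independent replicates.

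**Figure D1:**
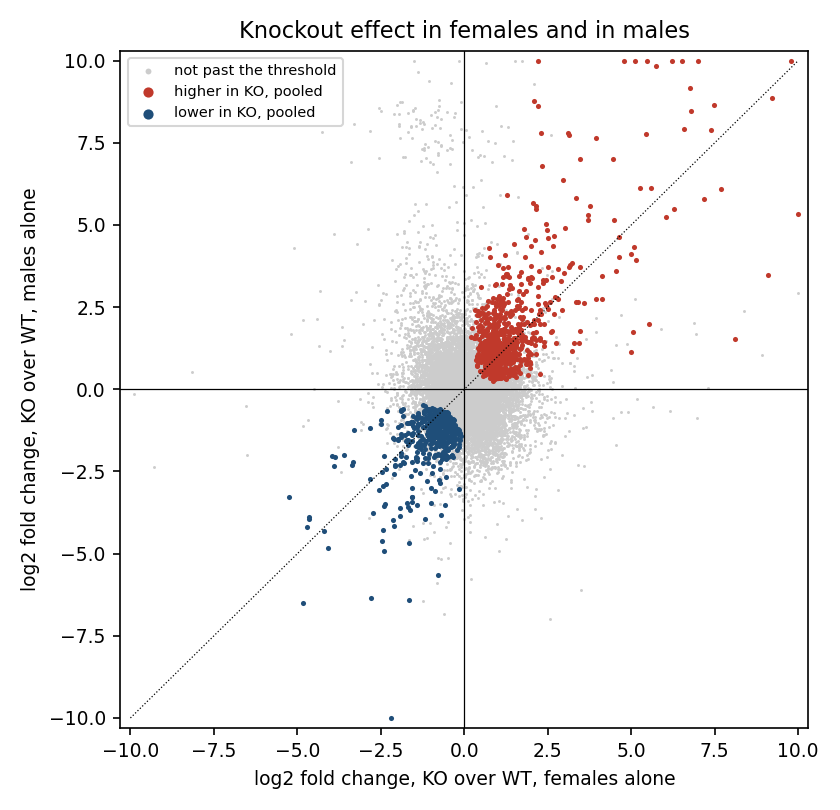
Log2 fold change, KO over WT, in females alone (x axis) and in males alone (y axis) for the 14289 genes tested in both sexes, with values beyond ±10 drawn at the edge. Red points are genes higher and blue points genes lower in the pooled fit; the dotted line marks equal change, and grey points fill all 4 quadrants, with Spearman's rho of 0.000755. The points at the top edge have no or nearly no counts in WT males, and their position depends on the prior count.

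Of the 762 genes that rose, 126 passed the threshold in each sex alone, 105 in females alone, 345 in males alone and 186 in neither. Of the 475 that fell the numbers were 65, 44, 308 and 58. These fits share their libraries with the pooled fit, so the numbers are a description. The difference between the sexes was past the threshold for 70 of the genes that rose and for 26 of those that fell. Over all 17389 tested genes it was past the threshold for 1824 (10.5%). The other 692 genes that rose and 449 that fell had no called difference. A missed threshold does not show that the sexes responded alike. Of 14099 protein-coding genes tested, 706 rose and 417 fell (7.97% together). Of 621 long intergenic noncoding RNAs, 23 rose and 11 fell (5.48% together), against 7.11% of all genes. When each library was left out in turn, 335 of the genes that rose and 177 of those that fell were called in all 11 fits. The total was 618 without KO male 3, 692 without WT female 3, 709 without KO male 1 and 751 without WT male 2. With the clock score as a further covariate 84 genes were called, 70 higher and 14 lower, and 76 of them were among the 1237. The direction was kept in that fit for 761 of the 762 genes that rose and for all 475 that fell.

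Rises were ranked among called protein-coding genes with at least 5 CPM on average in KO of each sex and no overlap within either sex. The 12 largest of these included many with next to no RNA in WT liver. Separation within a sex was a condition of choice for these 12, and ranking by size of change favours genes with very low WT levels. Neither trait is therefore a result about them. Fold changes against a group without counts depend on the prior count, so limits are given instead. They are taken from the lowest KO library over a floor of 3 counts per WT library, and they cover counting error only. Genes with 1 to 10 counts numbered 1638, 1665 and 2269 in WT males, against 4972 to 6715 in KO males. A 0 in a WT male may therefore stand for more than 3 counts, and limits against WT males, here and below, may be too high. This was not tested. Gpx2, a selenium-dependent glutathione peroxidase best known from gut epithelium, had 4.898, 1.36 and 10.6 CPM in KO females and 10.1, 4.15 and 13.6 CPM in KO males, against 0 CPM in both WT females and 0 CPM in all 3 WT males. It was at least 6.33-fold higher in KO liver of either sex and at least 19.3-fold higher in males. Slc22a12, the urate exchanger of the renal tubule and a gene called in both sexes alone, had 4.43, 1.12 and 5.93 CPM in KO females and 3.93, 3.35 and 4.38 CPM in KO males, against 0 CPM in both WT females and 0 CPM in all 3 WT males. It was at least 5.23-fold higher. No read of either gene was counted in the 5 WT libraries, and all 6 KO libraries had counts. Among the 762 genes that rose, 14 had no count in any WT library, a number that was not set against all tested genes. In WT males 45 of the 762 had no count, beside 875 of all 17389 tested genes.

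Tmprss4, a transmembrane serine protease, reached 6.36, 20.9 and 12.1 CPM in KO females and 34, 22.4 and 32.8 CPM in KO males, against 0.3098 and 0 CPM in WT females and 0 CPM in all 3 WT males. Its log2 fold change in females was 6.53 ± 0.97 (edgeR adjusted p = 0.019), and in males it was at least 105-fold higher. Scn2a, a voltage-gated sodium channel subunit of neurons, had 6.201, 8.32 and 10.7 CPM in KO females and 7.78, 9.604 and 9.37 CPM in KO males, against 0.248 and 0 CPM in WT females and 0 CPM in all 3 WT males. Tmprss4 and Scn2a were above every WT library in all 6 KO libraries, and their pooled calls were kept with every library left out. Slc1a1, a glutamate and aspartate transporter, stood at 7.504, 6.43 and 7.54 CPM in KO females and 13.6, 11.9 and 16.9 CPM in KO males, against 0.124 and 0.192 CPM in WT females and 0 CPM in all 3 WT males, a rise of 5.46 ± 0.48 (log2) in females and of at least 55.3-fold in males. Akr1b7, an aldo-keto reductase, had 23.3, 14.8 and 58.5 CPM in KO females and 5.56, 3.42 and 5.16 CPM in KO males, against 0.372 and 0.2396 CPM in WT females and 0 CPM in all 3 WT males, with its highest levels in KO females (pooled edgeR adjusted p = 0.00011). Both genes separated KO from WT libraries without overlap. Smpd3, the neutral sphingomyelinase that makes ceramide, had 27.7, 10.9 and 21.8 CPM in KO females and 24.4, 22.6 and 32.2 CPM in KO males, against 0.186 and 0.0958 CPM in WT females and 0, 0 and 1.16 CPM in WT males, with a pooled log2 fold change of 6.33 ± 0.76 (edgeR adjusted p = 0.00101). Olig1, a transcription factor known from the oligodendrocyte lineage and here among the smallest pooled p, had 8.34, 9.97 and 29.4 CPM in KO females and 27.04, 28.01 and 40.7 CPM in KO males, against 0.3098 and 0.623 CPM in WT females and 1.81, 1.72 and 0.857 CPM in WT males, and its log2 fold change was 4.68 ± 0.42. For Smpd3 and Olig1, too, every KO library lay above every WT library. Lrtm2, Gipc2 and Gm3776 also ranked among the largest rises, with lower limits of 17.96-fold and 46.99-fold in males for the first pair and 31.1-fold in females for Gm3776, a gene that lies between Gsta1 and Gsta2 on chromosome 9.

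Falls were ranked by the same rule, with the 5 CPM required in WT of each sex. Receptor and enzyme genes were among the 12 largest of these. Adrb3, the beta-3 adrenergic receptor, had 1.46, 0.767 and 0.0449 CPM in KO females and 2.37, 0.8003 and 0.393 CPM in KO males, against 21.01 and 37.1 CPM in WT females and 10.7, 13.4 and 7.91 CPM in WT males (log2 fold change −4.15 ± 0.68, edgeR adjusted p = 0.00454). All its WT libraries were above the KO libraries. Dgkh, a diacylglycerol kinase, had 4.79, 5.604 and 3.91 CPM in KO females and 8.0, 6.55 and 3.703 CPM in KO males, against 31.7 and 38.2 CPM in WT females and 29.9, 40.8 and 39.4 CPM in WT males. Its log2 fold change was −2.83 ± 0.25 in females and −2.71 ± 0.34 in males, and the pooled edgeR adjusted p was 0.00011. Dio1, the deiodinase that activates thyroid hormone, had 19.2, 14.7 and 0.404 CPM in KO females and 7.26, 5.82 and 11.8 CPM in KO males, against 88.5 and 34.8 CPM in WT females and 103, 114 and 49.03 CPM in WT males. Its call was kept in 6 of the 11 fits that left out 1 library. E2f8, a repressor of the cell cycle genes that hepatocytes need for polyploidy, had 2.97, 1.71 and 0.269 CPM in KO females and 4.0, 4.15 and 4.6 CPM in KO males, against 29.1 and 23.1 CPM in WT females and 20.04, 12.6 and 15.02 CPM in WT males. KO and WT libraries did not overlap in any of these 4 genes, which within each sex follows from how the genes were chosen. Peg3, an imprinted zinc finger gene, had 35.1, 8.61 and 8.22 CPM in KO females and 2.296, 5.24 and 2.36 CPM in KO males, against 43.4 and 114 CPM in WT females and 31.4, 70.9 and 40.8 CPM in WT males; the genotypes separated within each sex, while KO female 1 lay above WT male 1. Sult5a1 (log2 fold change −2.73 ± 0.41), Sdr9c7 (−2.68 ± 0.39) and Acnat2 (−3.43 ± 0.46), an acyl-CoA amino acid acyltransferase, fell with no overlap between any KO and WT library.

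**Figure D2:**
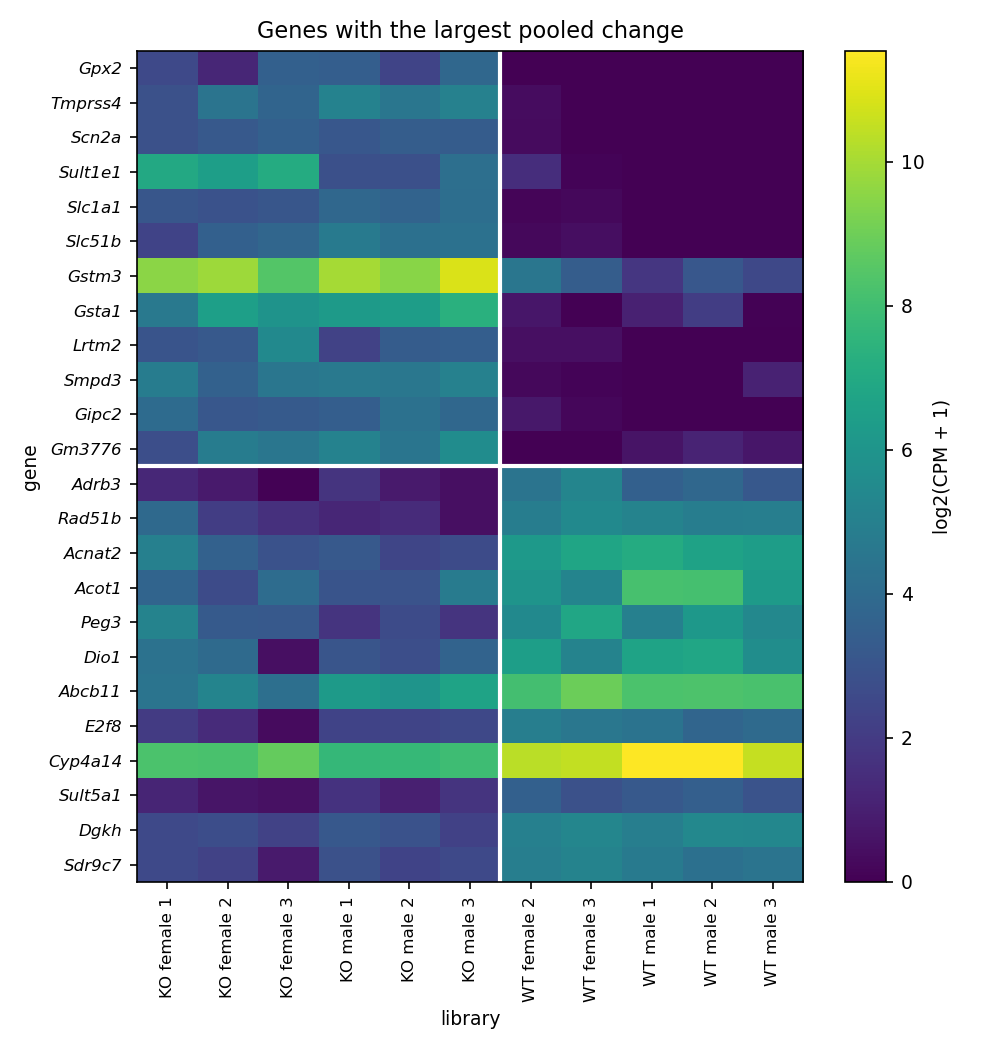
Expression, as log2(CPM + 1), in the 6 KO libraries (left) and the 5 WT libraries (right). Rows are the 12 largest pooled rises (top) and the 12 largest pooled falls (bottom) among the genes ranked. Ranked were called protein-coding genes with at least 5 CPM on average in the higher genotype of each sex, without overlap within a sex. Rows above the white line are darker in WT and rows below it brighter in WT in both sexes; Gstm3 and Cyp4a14 are the most abundant of each block.

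Of 638 antisense genes 9 were higher and 12 lower, 3.29% together, against 7.11% of all genes. Chn1os3 and Tbx3os1, annotated antisense to Chn1 and Tbx3, fell by 4.22 ± 0.38 and 4.18 ± 0.41 on the log2 scale (edgeR adjusted p of 0.000158 and 0.000258). Chn1os3 had 0.521, 0.295 and 0.359 CPM in KO females and 0.889, 0.8003 and 0.224 CPM in KO males, against 6.32 and 8.91 CPM in WT females and 10.3, 10.4 and 14.2 CPM in WT males. The antisense transcript AC154912.1 had 1.72, 2.42 and 2.38 CPM in KO females and 1.04, 0.946 and 1.85 CPM in KO males, against 15.2 and 14.9 CPM in WT females and 10.5, 16.9 and 20.7 CPM in WT males. Reads of an antisense gene and of its partner cannot be told apart here, because how reads were assigned to strands is not given in the sources used here.

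Of 19 tested genes on a list of NRF2 targets and glutathione enzymes 12 rose and 0 fell, against 4.38% and 2.73% of all genes. This list and those below were written with earlier results of these data known, so their shares are a description. The list's median log2 fold change was 2.32, against 0.05 over all genes, and it was 2.21 in females alone (13 rose, 3.33% of all genes) and 2.29 in males alone (12 rose, 8.45% of all genes). Its mean log2(CPM + 1) over 20 genes was 5.84, 5.76 and 6.11 in KO females and 6.35, 6.05 and 6.75 in KO males, against 4.26 and 3.82 in WT females and 4.17, 4.34 and 3.75 in WT males. Each KO library lay above each WT library. The count was 11 to 13 with each library left out and 7 with the clock score as covariate.

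Gstm3, a mu-class glutathione transferase, had 735, 934 and 351 CPM in KO females and 1019.8, 722 and 1868 CPM in KO males, against 22.1 and 9.58 CPM in WT females and 2.52, 7.86 and 4.74 CPM in WT males (log2 fold change 6.73 ± 0.69, edgeR adjusted p = 0.000317). Nqo1, the quinone reductase used as a marker of NRF2 activity, had 30.02, 25.8 and 66.2 CPM in KO females and 36.7, 30.9 and 39.3 CPM in KO males, against 5.02 and 4.46 CPM in WT females and 3.17, 2.36 and 1.61 CPM in WT males (log2 fold change 3.53 ± 0.31, edgeR adjusted p = 0.000158). Gsta2, an alpha-class transferase, had 75.5, 178 and 318 CPM in KO females and 257, 184 and 393 CPM in KO males, against 11.2 and 4.79 CPM in WT females and 6.08, 18.9 and 5.95 CPM in WT males (log2 fold change 4.68 ± 0.50). KO and WT libraries did not overlap for any of the 3 genes. Gsta1 had 24.2, 89.95 and 59.8 CPM in KO females and 76.1, 83.7 and 158 CPM in KO males, against 0.6196 and 0 CPM in WT females and 1.099, 3.22 and 0.0504 CPM in WT males (log2 fold change 6.70 ± 0.89). Cbr3, a carbonyl reductase, had 3.07, 2.65 and 11.6 CPM in KO females and 22.6, 13.3 and 27.9 CPM in KO males, against 0.558 and 0.719 CPM in WT females and 1.75, 1.21 and 1.11 CPM in WT males, higher in KO males than in KO females (log2 fold change 3.63 ± 0.45). The other members that rose were Gsta4 (log2 fold change 3.51 ± 0.52), Gstm1 (2.99 ± 0.41), Gstm4 (2.39 ± 0.44), Gstm2 (2.32 ± 0.34), Gclm (1.29 ± 0.24), the regulatory subunit of glutathione synthesis, and Ces2g (1.11 ± 0.27), beside Gpx2. Some of the Gsta and Gstm genes are close copies of one another, among which counts may be split.

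The other 7 tested members did not pass the threshold. Gclc, the catalytic subunit of glutathione synthesis, averaged 164 CPM in KO females and 210.1 CPM in KO males, against 345 CPM in WT females and 248 CPM in WT males (log2 fold change −0.62 ± 0.24, edgeR adjusted p = 0.142). Hmox1, heme oxygenase, had a log2 fold change of 2.13 in females and 0.49 in males, and its pooled edgeR adjusted p was 0.064. Log2 fold changes of the others were 0.62 ± 0.19 for Txnrd1, 1.12 ± 0.38 for Srxn1, 0.77 ± 0.50 for Gstp1, 0.30 ± 0.36 for G6pdx and 0.03 ± 0.34 for Me1. Gstm1 and Gstm4 rose more in males, with differences (females minus males) of −1.95 and −1.98 in log2 units (edgeR adjusted p = 0.0268 and 0.0491). Srxn1 and Gstp1 went the other way, with differences of 1.80 and 2.54 (edgeR adjusted p = 0.0394 and 0.0169), and both rose in females alone.

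The promoters of these genes were searched for the core of the antioxidant response element, TGACNNNGC on either strand, in RefSeq promoters of GRCm38.p6 (250 bases before to 50 after each start). The core lay in 12.5% of 711 promoters of the genes that rose, in 12.1% of 448 promoters of those that fell and in 12.4% of all 32851 promoters. Among the 12 NRF2 and glutathione genes that rose, 11 matched the table, and 1 of their 13 promoters held the core, that of Gclm. Over the whole list, 17 of 20 genes matched and 5 of their 22 promoters held it, including those of Txnrd1 and Srxn1. No match says only that these letters are not in this window. The 250 bases before the start are printed below in lower case with matches to the core in capitals, for Gclm, which holds it, for the exporter gene Abcc4 described further on, which holds it before both annotated starts, and for Nqo1, which has the lowest adjusted p of the list and holds none.
Gclm (chr3:122245307-122245556, plus strand): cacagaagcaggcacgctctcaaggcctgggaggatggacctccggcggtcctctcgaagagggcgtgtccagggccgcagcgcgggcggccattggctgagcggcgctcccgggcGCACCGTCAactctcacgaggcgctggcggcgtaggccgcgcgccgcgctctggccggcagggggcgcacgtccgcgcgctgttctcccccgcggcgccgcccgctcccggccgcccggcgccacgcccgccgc
Abcc4, first start (chr14:118706220-118706469, minus strand): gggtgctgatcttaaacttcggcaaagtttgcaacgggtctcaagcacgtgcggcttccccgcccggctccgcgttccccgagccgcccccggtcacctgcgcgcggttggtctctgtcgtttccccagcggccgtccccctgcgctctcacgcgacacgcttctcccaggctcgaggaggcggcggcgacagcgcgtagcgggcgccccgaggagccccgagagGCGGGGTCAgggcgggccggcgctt
Abcc4, second start (chr14:118676932-118677181, minus strand): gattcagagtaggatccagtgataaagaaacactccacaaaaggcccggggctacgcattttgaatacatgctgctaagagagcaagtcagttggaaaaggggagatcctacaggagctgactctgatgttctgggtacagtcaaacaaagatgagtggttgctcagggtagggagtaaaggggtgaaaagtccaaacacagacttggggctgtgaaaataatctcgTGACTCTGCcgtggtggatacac
Nqo1 (chr8:107403206-107403455, minus strand): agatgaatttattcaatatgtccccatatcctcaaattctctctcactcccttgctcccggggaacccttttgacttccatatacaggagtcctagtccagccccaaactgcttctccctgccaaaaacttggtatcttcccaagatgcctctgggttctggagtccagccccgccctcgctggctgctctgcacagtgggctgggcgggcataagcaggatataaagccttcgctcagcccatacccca
The match of Gclm, GCACCGTCA, began 134 bases before its start, and those of Abcc4, GCGGGGTCA and TGACTCTGC, began 25 and 23 bases before the first and second start.

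Of 22 tested enzyme genes known to be induced through CAR and PXR 12 rose and 0 fell (4.38% and 2.73% of all genes), with a median log2 fold change of 1.42. The median was 0.61 in females alone, where 4 members rose (3.33% of all genes), and 2.21 in males alone, where 11 rose (8.45%). The count rested on single libraries. It was 5 without KO male 1 or KO male 3, and 6 without WT female 3 or any 1 of the WT males. Without KO male 2 it was 7. With the clock score as covariate 4 members rose and 1 fell, and limma-voom called 7 higher and 2 lower. Cyp3a11, the main PXR-induced P450 of mouse liver, had 5918, 4808 and 6826 CPM in KO females and 6133, 3496 and 12751 CPM in KO males, against 309 and 381 CPM in WT females and 1237, 1280.0 and 524 CPM in WT males (log2 fold change 3.40 ± 0.44, edgeR adjusted p = 0.00109). Cyp2a5, a coumarin hydroxylase, had 874, 1863 and 7098 CPM in KO females and 5185, 3485 and 6402 CPM in KO males, against 327 and 191 CPM in WT females and 136, 154 and 55.2 CPM in WT males (log2 fold change 4.63 ± 0.64). Cyp2c55 had 8.49, 23.1 and 7.004 CPM in KO females and 27.2, 21.6 and 50.5 CPM in KO males, against 0.372 and 0.431 CPM in WT females and 0.8404, 1.501 and 2.77 CPM in WT males (log2 fold change 4.52 ± 0.46). Sult1e1, the estrogen sulfotransferase, had 122, 88.1 and 137 CPM in KO females and 6.0, 6.04 and 17.6 CPM in KO males, against 1.86 and 0.0958 CPM in WT females and 0 CPM in all 3 WT males, so its levels in KO females were above those in KO males. All 4 of these genes were higher in every KO library than in any WT library, and all 4 kept their call in each of the 11 fits with 1 library left out and with the clock score as covariate.

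The other 8 members that rose changed less and kept their call in fewer of the 11 fits. Alas1, the first enzyme of heme synthesis, had a log2 fold change of 1.199 ± 0.24 (called in 9 fits), Por, the electron donor of the P450 enzymes, of 1.27 ± 0.31 (6 fits), and Papss2, which supplies sulfate, of 1.53 ± 0.39 (5 fits). Cyp2c50, Cyp2c54, Gstt1, Aldh1a1 and Ugt2b34 made up the rest, with log2 fold changes of up to 1.68. Cyp2b10, the usual CAR target, was low throughout, at 1.67 CPM in KO females and 0.772 CPM in KO males, against 0.282 CPM in WT females and 0.524 CPM in WT males (edgeR adjusted p = 0.584). Cyp2a, Cyp2b, Cyp2c and Cyp3a genes also have near-identical copies.

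Of 14 tested bile acid exporters and canalicular pumps 2 rose and 0 fell (4.38% and 2.73% of all genes), both of them basolateral exporters. Abcb11 itself, which fell, was not on this list. Slc51b, the beta subunit of the organic solute transporter that exports bile acids to blood, had 3.96, 10.6 and 13.2 CPM in KO females and 24.8, 18.04 and 18.9 CPM in KO males, against 0.186 and 0.335 CPM in WT females and 0 CPM in all 3 WT males. The rise was 5.13 ± 0.67 (log2, edgeR adjusted p = 0.00919) in females and at least 84.2-fold in males. Abcc4 (MRP4), another basolateral exporter, had 13.1, 18.05 and 47.9 CPM in KO females and 27.9, 24.7 and 23.8 CPM in KO males, against 5.95 and 4.12 CPM in WT females and 0.517, 2.14 and 4.28 CPM in WT males (log2 fold change 2.95 ± 0.49, edgeR adjusted p = 0.00472). Both were higher in every KO than in every WT library and were called with each library left out. Slc51a, the partner subunit of Slc51b, stayed low, at 0.7295, 0.708 and 0.314 CPM in KO females and 0.593, 0.873 and 0.449 CPM in KO males, against 0.06196 and 0.0479 CPM in WT females and 0, 0 and 0.403 CPM in WT males (edgeR adjusted p = 0.176). Abcb1a, a multidrug pump, had 4.95, 19.3 and 42.4 CPM in KO females and 23.7, 21.6 and 33.8 CPM in KO males, against 6.88 and 5.37 CPM in WT females and 0, 0 and 2.57 CPM in WT males and missed the threshold (edgeR adjusted p = 0.0775).

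On the scale of FPKM, which allows levels of different genes to be compared, Abcc4 averaged 3.88 FPKM in KO females and 3.71 FPKM in KO males, against 0.753 FPKM in WT females and 0.362 FPKM in WT males. Abcb4, the phospholipid flippase, was far more abundant, at 25.5 and 44.97 FPKM in KO females and males, against 25.9 and 66.2 FPKM in WT females and males, and its pooled log2 fold change was −0.25 ± 0.20 (edgeR adjusted p = 0.534). The multidrug resistance proteins Abcc2 (MRP2) and Abcc3 (MRP3) had values of 0.31 ± 0.44 and 0.93 ± 0.31 in the pooled fit (log2, edgeR adjusted p = 0.758 and 0.086). Among 8 uptake genes tested 2 rose and 0 fell (4.38% and 2.73% of all genes). The count was 1 without any 1 of the 6 male libraries, and 0 with the clock score as covariate. In that last fit 70 of all 17389 genes rose. Ephx1, an epoxide hydrolase also proposed to take up bile acids, had 445, 441 and 504 CPM in KO females and 571, 418 and 1030.1 CPM in KO males, against 142 and 107 CPM in WT females and 291, 381 and 164 CPM in WT males (log2 fold change 1.55 ± 0.31, edgeR adjusted p = 0.0106). Slco1a4, an organic anion carrier, had 343, 244 and 334 CPM in KO females and 128, 108 and 162 CPM in KO males, against 155 and 293 CPM in WT females and 18.6, 37.02 and 17.1 CPM in WT males. Its log2 fold change of 1.53 ± 0.40 (edgeR adjusted p = 0.0357) differed between the sexes and lost its call in 7 of the 11 fits. Slc10a1 (NTCP), the main bile acid uptake carrier, had a log2 fold change of 0.88 ± 0.35 (edgeR adjusted p = 0.156).

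**Figure D3:**
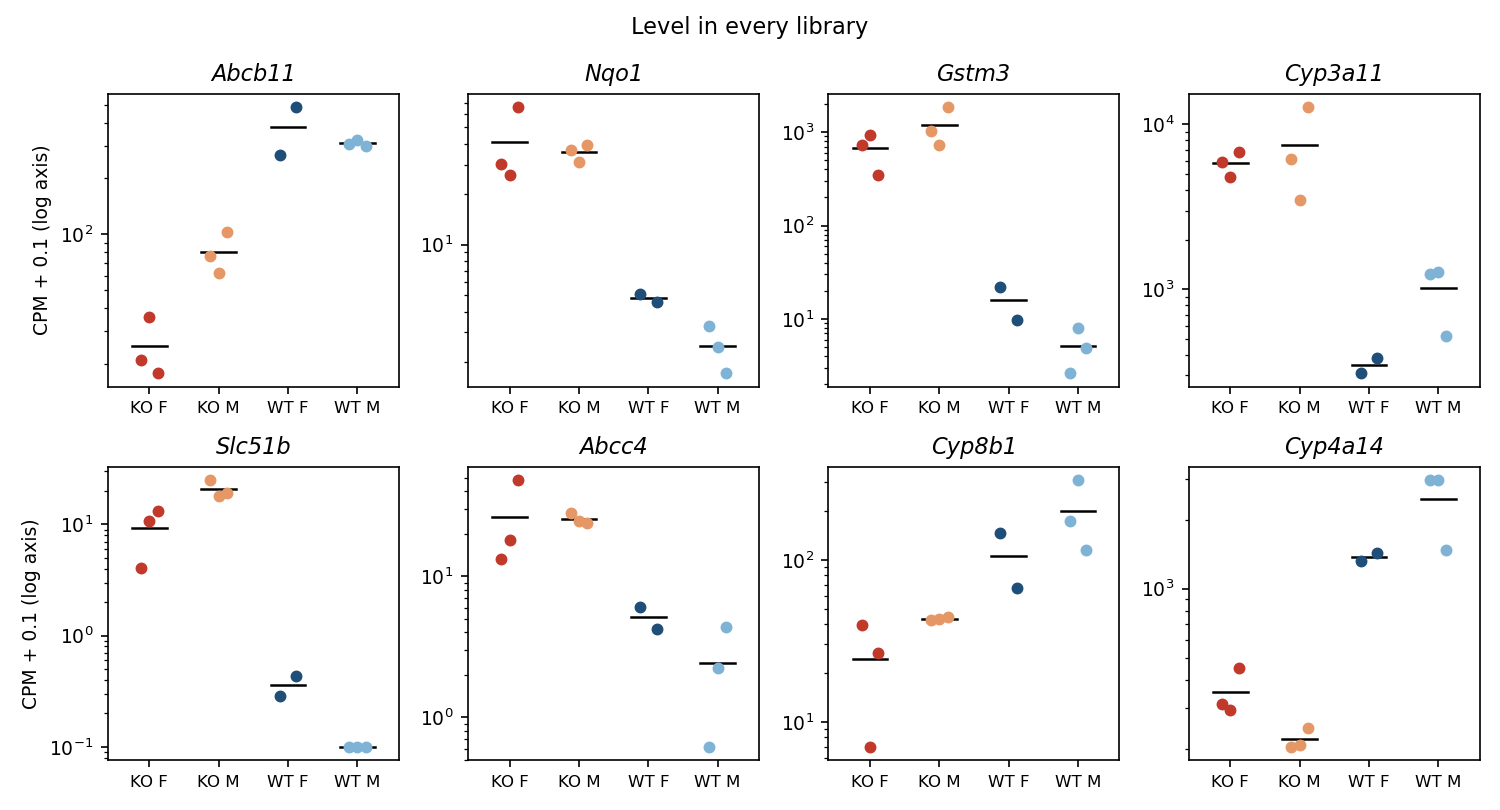
Level in each library of 8 genes, as CPM + 0.1 on a log axis, in KO females (KO F, n = 3), KO males (KO M, n = 3), WT females (WT F, n = 2) and WT males (WT M, n = 3). Points are libraries and lines are arithmetic means; KO and WT libraries do not overlap in any panel, with Abcb11, Cyp8b1 and Cyp4a14 lower and Nqo1, Gstm3, Cyp3a11, Slc51b and Abcc4 higher in KO, and points at 0.1 have no counts.

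Of 18 tested genes of bile acid synthesis 2 rose and 3 fell (4.38% and 2.73% of all genes). The counts went down to 1 each with 1 library left out, and both were 0 with the clock score as covariate. In that last fit 70 of all 17389 genes rose and 14 fell. Cyp8b1, the sterol hydroxylase that makes cholic acid, had 39.2, 6.901 and 26.5 CPM in KO females and 42.3, 42.9 and 44.5 CPM in KO males, against 146 and 66.5 CPM in WT females and 173, 309 and 114 CPM in WT males (log2 fold change −2.17 ± 0.39, edgeR adjusted p = 0.00692). Its change was −2.09 ± 0.71 in females and −2.33 ± 0.36 in males, and it was called with each library left out but not with the clock score as covariate (edgeR adjusted p = 0.177). Cyp2c70, which makes the muricholic acids of mice, had 204, 111 and 127 CPM in KO females and 161, 137 and 235 CPM in KO males, against 68.7 and 68.6 CPM in WT females and 14.4, 18.2 and 4.94 CPM in WT males (log2 fold change 2.55 ± 0.55, edgeR adjusted p = 0.0173). Both genes separated KO from WT in every library, in opposite directions. Acox2, a peroxisomal oxidase of the side chain, had a log2 fold change of 1.25 ± 0.23 (edgeR adjusted p = 0.00781). Cyp46a1 (−1.38 ± 0.37) and Acot8 (−0.67 ± 0.17) fell, with calls kept in 4 and 1 of the 11 fits. Of the conjugation genes, Baat stood at 0.48 ± 0.21 (log2) and Slc27a5 at 0.86 ± 0.31, and neither passed the threshold (edgeR adjusted p = 0.211 and 0.107).

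Cyp7a1, the rate-limiting enzyme of bile acid synthesis, did not pass the pooled test. It stood at 103, 235 and 166 CPM in KO females and 164, 193 and 169 CPM in KO males, against 434 and 196 CPM in WT females and 2.07, 10.7 and 5.95 CPM in WT males. KO libraries lay within the WT female range or below it, and far above all WT males. The pooled log2 fold change was 2.05 ± 1.29 (edgeR adjusted p = 0.413) and the difference between the sexes −5.72 ± 0.75 (edgeR adjusted p = 0.00132). Among 10 tested genes of bile acid sensing 0 rose and 1 fell (4.38% and 2.73% of all genes). Nr1h4 (FXR) had 160.4, 139 and 72.9 CPM in KO females and 148, 144 and 117 CPM in KO males, against 202 and 231 CPM in WT females and 238, 265 and 283 CPM in WT males (log2 fold change −0.88 ± 0.22, edgeR adjusted p = 0.0303), a call kept in 5 of the 11 fits. Nr0b2 (SHP), the repressor induced by FXR, had 8.29, 45.9 and 29.9 CPM in KO females and 56.4, 39.5 and 34.7 CPM in KO males, against 12.95 and 15.2 CPM in WT females and 23.3, 23.2 and 17.1 CPM in WT males and missed the threshold (edgeR adjusted p = 0.0834). Hnf4a, a master regulator of hepatocytes, had a log2 fold change of 0.10 ± 0.19 (edgeR adjusted p = 0.825).

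The inverted repeat to which FXR binds (IR-1), searched as GGTCA, any 1 base and TGACC, which reads as its own reverse complement, was found in 13 of the 32851 promoters, 2 of the 711 promoters of genes that rose and 0 of the 448 of genes that fell. The 2 genes were Gm31583 and Steap3, a metalloreductase of iron uptake, both singled out after the search. Steap3 had a log2 fold change of 2.45 ± 0.46 (edgeR adjusted p = 0.00819), with mean levels of 21.4 CPM in KO females and 33.3 CPM in KO males, against 9.17 CPM in WT females and 2.79 CPM in WT males. One of its 4 annotated starts is shown, with the repeat, GGTCAATGACC, in capitals 105 bases before it.
Steap3 (chr1:120270271-120270520, minus strand): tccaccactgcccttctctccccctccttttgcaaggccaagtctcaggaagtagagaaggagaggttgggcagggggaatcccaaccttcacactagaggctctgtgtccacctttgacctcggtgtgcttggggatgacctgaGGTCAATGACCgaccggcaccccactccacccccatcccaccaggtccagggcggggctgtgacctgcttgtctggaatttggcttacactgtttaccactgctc

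Of 22 tested genes of fatty acid oxidation and PPAR-alpha targets 0 rose and 9 fell (4.38% and 2.73% of all genes), with a median log2 fold change of −1.07. The median was −0.40 in females alone, where 3 fell (3.15% of all genes), and −1.46 in males alone, where 12 fell (7.15%). The count was 5 without KO male 1 or KO male 3, and 0 with the clock score as covariate. In that last fit 14 of all 17389 genes fell. Cyp4a14, a fatty acid omega-hydroxylase, had 313, 294 and 452 CPM in KO females and 204, 208 and 246 CPM in KO males, against 1315 and 1431 CPM in WT females and 2969, 2973 and 1477 CPM in WT males (log2 fold change −2.84 ± 0.35, edgeR adjusted p = 0.00099). Acot1, a cytosolic acyl-CoA thioesterase, had 12.1, 5.25 and 15.8 CPM in KO females and 7.04, 6.62 and 26.98 CPM in KO males, against 62.6 and 35.5 CPM in WT females and 291, 282 and 78.3 CPM in WT males (log2 fold change −3.21 ± 0.59). Acadvl, the first enzyme of mitochondrial oxidation of long chains, had 31.7, 24.1 and 32.96 CPM in KO females and 21.3, 21.8 and 38.1 CPM in KO males, against 47.9 and 63.3 CPM in WT females and 74.02, 69.4 and 53.7 CPM in WT males (log2 fold change −1.11 ± 0.21). All 3 were lower in every KO library than in any WT library. Pex11a (log2 fold change −1.24 ± 0.23), Vnn1 (−1.77 ± 0.36), Slc27a1 (−1.27 ± 0.29), Crat (−1.31 ± 0.31), Acot2 (−1.79 ± 0.49) and Acaa1b (−1.25 ± 0.34) fell too. Of the other genes of mitochondrial beta-oxidation on the list, beside Acadvl, Acadm (−0.16 ± 0.21), Acadl (−0.03 ± 0.22), Hadha (−0.52 ± 0.28) and Cpt1a (0.34 ± 0.30) did not pass the threshold, with adjusted p of 0.745, 0.957, 0.311 and 0.583 (edgeR). Acot2 and Slc27a1 fell more in males (edgeR adjusted p = 0.00307 and 0.0257 for the difference). Ehhadh, a peroxisomal enzyme, had a difference in the same direction (2.82, females minus males), and Ppara, the receptor gene itself, had the opposite one (−2.26), with a fall in females alone.

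Of 24 tested genes of the urea cycle and amino acid breakdown 8 rose and 0 fell (4.38% and 2.73% of all genes), with a median log2 fold change of 0.57. In females alone 1 rose and 0 fell (3.33% and 3.15% of all genes), and in males alone 9 rose and 1 fell (8.45% and 7.15%). The count was 5 without KO male 1, KO male 3 or WT male 1, and 0 with the clock score as covariate. In that last fit 70 of all 17389 genes rose. Ass1, which joins citrulline and aspartate in the urea cycle, had 1707, 1977 and 3515 CPM in KO females and 2099, 1264 and 3446 CPM in KO males, against 473 and 482 CPM in WT females and 599.7, 678 and 277 CPM in WT males (log2 fold change 2.22 ± 0.35, edgeR adjusted p = 0.00321). Arg1, which releases urea, had 2696, 1680.3 and 2442 CPM in KO females and 1263, 951 and 1225 CPM in KO males, against 639 and 766 CPM in WT females and 436, 459.8 and 210.2 CPM in WT males (log2 fold change 1.66 ± 0.27, edgeR adjusted p = 0.00369). The difference between the sexes was called for 4 members, Otc, Uroc1 and Prodh with the change lower in females and Sdsl with it higher. The fitted changes of Arg1 in the 2 sexes differed by 0.06 ± 0.51 (females minus males, log2, edgeR adjusted p = 0.961). Hal, which starts histidine breakdown, had 307, 281 and 787 CPM in KO females and 441, 271 and 601 CPM in KO males, against 171 and 198 CPM in WT females and 97.6, 84.98 and 73.3 CPM in WT males. Every KO library exceeded every WT library for these 3 genes and for Gls2, the liver glutaminase (log2 fold change 1.38 ± 0.29). Sds (1.59 ± 0.34), Cps1 (1.44 ± 0.38) and Otc (1.31 ± 0.31) rose as well, while Asl (0.55 ± 0.40), Tat (0.60 ± 0.37) and Ftcd (−0.34 ± 0.22) did not pass the threshold.

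Of 12 genes of gluconeogenesis and glycogen 3 rose and 0 fell (4.38% and 2.73% of all genes). The count went down to 2 with 1 library left out and to 0 with the clock score as covariate. In that last fit 70 of all 17389 genes rose. Slc2a2 (GLUT2), the glucose carrier of hepatocytes, had 186, 251 and 494 CPM in KO females and 317, 338 and 399.8 CPM in KO males, against 136 and 134 CPM in WT females and 21.5, 30.2 and 32.3 CPM in WT males (log2 fold change 2.51 ± 0.47, edgeR adjusted p = 0.00788). Ugp2, which makes UDP-glucose, had a log2 fold change of 1.57 ± 0.27 and Slc37a4, the glucose-6-phosphate carrier, one of 1.28 ± 0.35. G6pc and Pck1 did not pass the threshold (edgeR adjusted p = 0.522 and 0.305). Of 24 hepatocyte identity genes 2 rose, the lectin subunit Asgr2 and the plasma protein Ahsg, and 1 fell, Nr1h4 (4.38% and 2.73% of all genes). Their mean log2(CPM + 1) was 9.52 to 10.02 in KO and 8.83 to 9.76 in WT libraries.

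Lists of other liver cell types had few calls in the pooled fit. In bulk liver, fewer cells of a type and less RNA per cell cannot be told apart. Kupffer cell genes had 2 of 13 members higher and 0 lower (4.38% and 2.73% of all genes). With the clock score as covariate 0 of them were called, where 84 of all 17389 genes were. Cd5l, a secreted macrophage protein, had 42.2, 68.7 and 42.4 CPM in KO females and 77.2, 24.5 and 50.7 CPM in KO males, against 16.4 and 12.5 CPM in WT females and 20.9, 25.9 and 14.4 CPM in WT males (log2 fold change 1.54 ± 0.30). Its KO male 2 lay below WT male 2. Vsig4, a complement receptor, had a log2 fold change of 1.79 ± 0.39, and its genotypes did not overlap within either sex. Of 23 macrophage and monocyte genes 1 rose, Trem2, a lipid-sensing receptor, at 8.55, 15.3 and 4.53 CPM in KO females and 0.667, 2.401 and 6.45 CPM in KO males, against 1.18 and 0.575 CPM in WT females and 1.36, 0.572 and 0.554 CPM in WT males (log2 fold change 2.59 ± 0.64, edgeR adjusted p = 0.0283). KO and WT males overlapped for Trem2, and its call was kept in 6 of the 11 fits. Mean log2(CPM + 1) over the macrophage list was 4.07 to 4.41 in KO females and 3.34 to 3.74 in KO males, against 2.60 to 3.04 in WT females and 2.85, 2.69 and 4.24 in WT males, the highest being WT male 3. In females alone 17 of the 23 rose (3.33% of all genes), in males alone 0 by edgeR, and 10 rose in the pooled fit without WT male 3. The pooled count was 0 without KO male 3, WT female 2, WT female 3 or WT male 2. Of 21 cholangiocyte genes 1 rose, Elf3 (log2 fold change 2.61 ± 0.61), and 0 fell (4.38% and 2.73% of all genes). In females alone 7 rose (median log2 fold change 1.41), and in males alone 0 rose by edgeR (median −0.51); the pooled count was 0 without KO female 1. Of 18 endothelial genes 0 rose and 1 fell, Clec4g (−0.88 ± 0.21). In males alone 6 fell (7.15% of all genes), and in females alone 1 rose (3.33%). Mean log2(CPM + 1) over the endothelial list was 3.63 to 3.90 in KO females and 3.48 to 3.69 in KO males, against 3.53 and 3.66 in WT females and 4.005 to 4.46 in WT males. No member of the lists for fibrosis and stellate cells (39 tested), T and NK cells (13), B and plasma cells (12), neutrophils (9) or p53 and growth arrest (18) passed the threshold in edgeR's pooled fit. At an unadjusted p under 0.05 these lists had 1, 0, 0, 1 and 1 members, DESeq2 called 0, 0, 0, 1 and 1, and limma-voom called none. Over all 17389 genes 3816 had an unadjusted p under 0.05. In males alone 5 p53 and growth arrest genes fell and 1 rose, and 2 neutrophil and 2 fibrosis genes fell (7.15% and 8.45% of all genes fell and rose). In females alone 1 fibrosis gene and 1 p53 gene rose (3.33%). Median log2 fold changes in females and in males were 0.63 and −0.60 for fibrosis, 1.04 and −1.84 for neutrophils and 0.23 and −0.76 for p53. No T, NK, B or plasma cell gene was called in either sex alone. Of 32 cell cycle genes 0 rose and 2 fell (4.38% and 2.73% of all genes), E2f8 above and Mcm7, a helicase subunit (log2 fold change −1.09 ± 0.24).

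**Figure D4:**
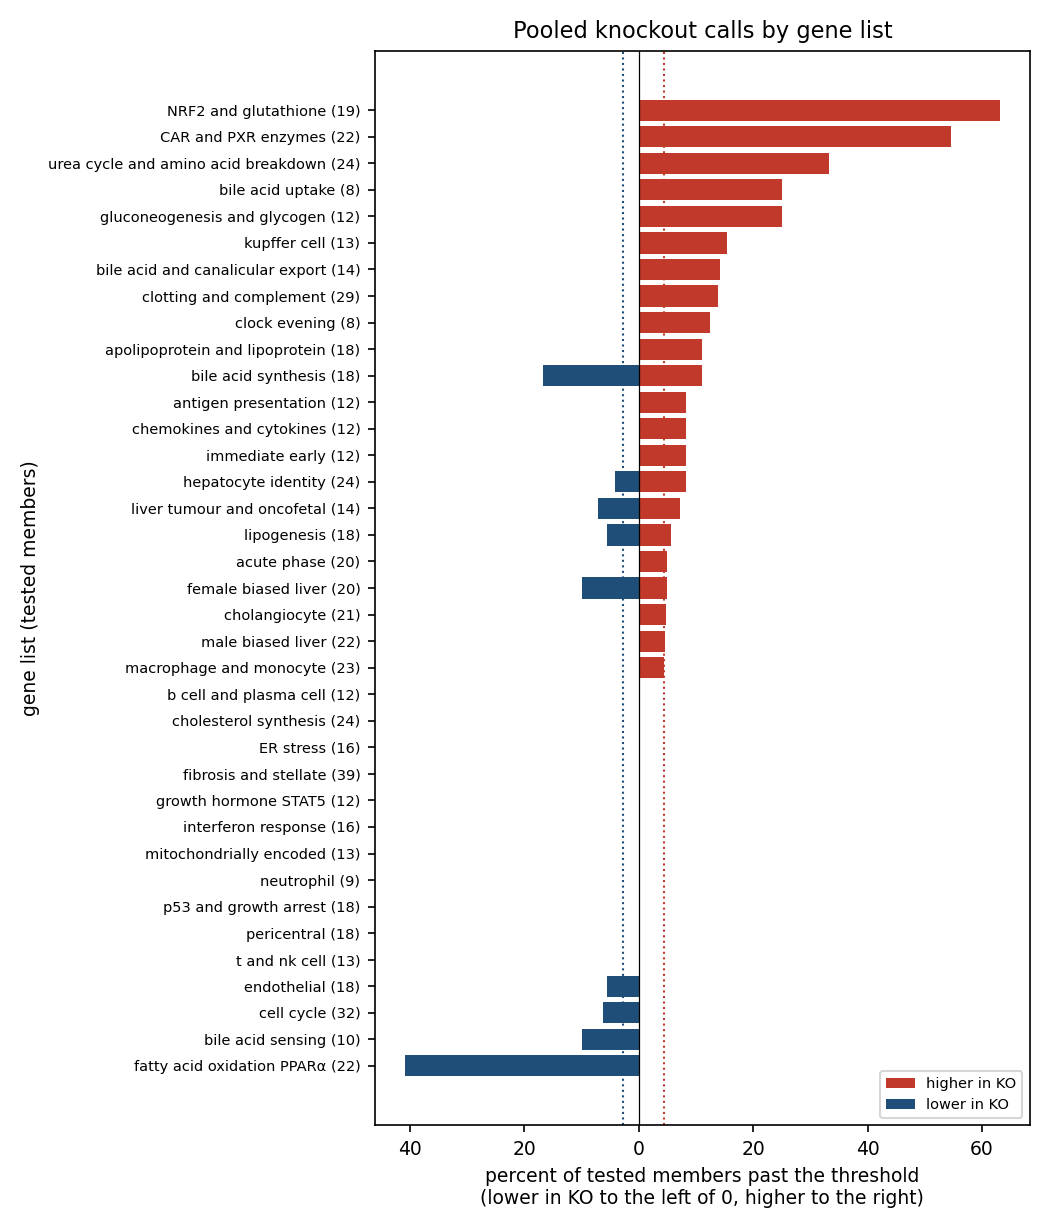
Percent of the tested members of each gene list that were higher (red, right) or lower (blue, left) in KO in the pooled fit, for lists with at least 8 tested members (number in brackets); the dotted lines are the percent over all genes, 4.38 and 2.73. NRF2 and glutathione genes and CAR and PXR enzymes reach farthest to the right, and fatty acid oxidation and PPAR-alpha targets farthest to the left. The lists were written with earlier results of these data known.

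None of 24 cholesterol synthesis genes rose or fell in the pooled fit of edgeR, where the median log2 fold change was 0.93. At an unadjusted p under 0.05 there were 3 genes, DESeq2 called 2 and limma-voom 0. The median was −1.22 in females alone, where 0 rose and 1 fell (3.33% and 3.15% of all genes). It was 2.80 in males alone, where 22 rose and 0 fell (8.45% and 7.15%). The difference between the sexes passed the threshold for 23 of the 24 genes, where 8.45% of all genes had a change that was lower in females. Sqle, squalene epoxidase, had 22.6, 45.7 and 27.97 CPM in KO females and 60.3, 66.6 and 49.3 CPM in KO males, against 68.4 and 59.98 CPM in WT females and 2.65, 4.07 and 2.97 CPM in WT males. KO males, KO females and WT females lay between 22.6 and 68.4 CPM, and the 3 WT males lay between 2.65 and 4.07 CPM. In all, 1824 genes (10.5%) differed in their knockout effect between the sexes, 1470 with a change lower in females and 354 with one higher (2.04%). The total was 458 without WT female 3, 622 without WT female 2, 909 without KO female 1 and 1011 without KO male 1. Of the 1470 genes 1060 had lower levels in KO females and higher levels in KO males than in the WT of their sex. Over all 1470 genes the median log2 fold change was −0.80 in females and 1.25 in males. Clock scores, given with each library above, were lowest in WT males, the group that also stood apart in these genes, and the part of clock phase was not tested apart from genotype.

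**Figure D5:**
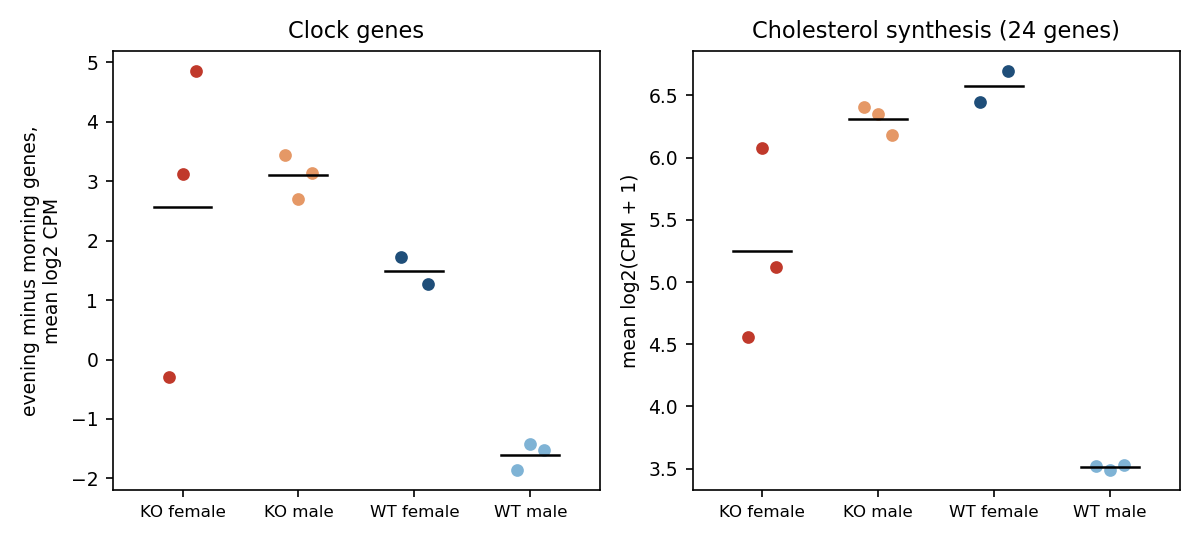
Clock score (left; evening genes minus morning genes, in log2 CPM) and mean log2(CPM + 1) of 24 cholesterol synthesis genes (right) in each library; lines are group means. WT males (n = 3) are lowest in both panels, at −1.86 to −1.42 and 3.49 to 3.53, while KO males (n = 3), KO females (n = 3) and WT females (n = 2) lie higher.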

How the data were processed

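RNA of 14 mouse livers was sequenced, and the deposited table holds 54532 genes with 1 column of counts and 1 column of FPKM per library. Reads were aligned with HISAT2 2.0.5 to GRCm38 and the authors' counts were made with featureCounts 1.5.0-p3, per the submitters' processing notes, while the strand setting is not given in the sources used here. The FPKM values are the authors' own, as deposited, and served only to compare levels between genes. For 27 symbols that a spreadsheet had turned into dates the gene ID gave the name.

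Counts of 11 libraries were fitted in R 4.3.3 with edgeR 4.0.16 (filterByExpr over the 4 groups, TMM scaling, robust quasi-likelihood test), with terms for sex and genotype. P-values were adjusted over all 17389 tested genes by Benjamini-Hochberg, with a threshold of 0.05. The difference between the sexes came from the 4 group means, and each sex was also fitted alone. Library totals of the 11 libraries ran from 14745140 to 19346354 counts. The scripts were tested on simulated counts. DESeq2 1.42.0, limma-voom (limma 3.58.1), other scalings, filters and covariates, and each library left out in turn were alternatives.

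Named genes were Abcb11, the 12 largest protein-coding rises and falls without overlap within a sex and with at least 5 CPM on average in the higher genotype of each sex, up to 4 called members of each list with the smallest p, and all genes of the 4 bile acid lists. Added to these were up to 5 genes each way with the smallest p for the difference, the 10 with the smallest p among genes called with every library left out, and up to 5 each way called in both sexes alone. Other list members are named by their list. The members and the 41 gene lists (673 genes, 2 of them not matched in the table) were chosen with earlier results of these data known. The 3 tumour libraries were left out, since the comparison used the non-tumour tissue of KO females. The motif search is a description. Values of 2 genes that met these rules are not reported here.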

Additional observations from a re-analysis of the deposited data

Results flagged for a closer look

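Knockout effects that differed between the sexes, by edgeR's test of the difference (adjusted p under 0.05), are given here as the change in females minus that in males, in log2 units. Over all genes 1824 differed. Among the genes named for the pooled effect, the values were −1.98 for Abcb11, −5.51 for Slc1a1, −6.40 for Slc51b and −6.21 for Gipc2. The last 3 rose in both sexes and had no count in WT males, so the size of the difference depends on the prior count. The same holds for Gm7463 (−13.11), which had 11.6, 29.3 and 25.2 CPM in KO females and 19.6, 23.1 and 23.1 CPM in KO males, against 51.2 and 77.3 CPM in WT females and 0 CPM in all 3 WT males. KO libraries of both sexes lay between the WT females above and the WT males below.

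Several of the genes with the lowest p for a difference stood apart in WT males. Gm15441 (7.95) had 0.625, 0.295 and 0.494 CPM in KO females and 0, 0.0728 and 0.337 CPM in KO males, against 2.11 and 2.44 CPM in WT females and 135, 287 and 136 CPM in WT males, so it was lower in KO livers of both sexes and far more so in males. Igsf11 (3.10), Plcl2 (3.08) and Klf2 (2.50) were higher in WT males than in any other library. Sqle (−5.19), Zkscan7 (−3.90), Dgkq (−3.95) and Mmab (−4.77) were lowest in WT males. Lpl, lipoprotein lipase (3.67), had 519, 239.6 and 321 CPM in KO females and 46.1, 65.5 and 39.5 CPM in KO males, against 13.3 and 10.3 CPM in WT females and 19.7, 20.4 and 23.03 CPM in WT males. It was higher in KO livers of both sexes, most of all in females.

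In bile acid metabolism the difference was −5.72 for Cyp7a1, −2.73 for Cyp2c70, −3.82 for Akr1d1 and −2.25 for Akr1c6. Among carriers and their partners it was −1.9997 for Slco1a4, 2.44 for Slco1a1, −2.46 for Abcc2, −1.77 for Abcg5, −2.01 for Abcg8 and −1.37 for Atp8b1. It was −2.32 for Nr1i3 (CAR), −4.62 for the lipogenic gene Thrsp, −2.45 for Slc2a2, −2.14 for the chemokine Cxcl1 and −1.57 for complement C2. Clock scores were lowest in WT males, and the part of clock phase and of the few low counts in WT males in these differences was not tested.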

How the results depend on the processing

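The pooled total of 1237 genes was 2423 with DESeq2, 2475 as the average of the 2 sexes, 84 with the clock score as covariate, 330 with the replicate block and 618 to 1216 with each library left out. It stayed within 1.5 times under the other scalings, filters and tools (1126 to 1460), including the filter at a mean of 5 CPM, which was chosen after seeing the data. The total for the difference between the sexes (1824) was 2867 with DESeq2, 2739 with no low-count filter, 184 with the replicate block and 458 to 2531 with each library left out. In females alone (1061) it was 2792 with DESeq2, 3128 with no low-count filter and 16 to 1675 with a library left out. In males alone (2262) it was 973 with the replicate block and 874 to 2825 with a library left out. The causes were not tested. Where leaving out a WT female leaves 1 of them, that library is assumed to vary like the others.

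No direction of a called named gene was reversed. Of the 82 named genes called, 50 kept the call with the replicate block, 30 with the clock covariate and 64 to 80 under the other alternatives, where a few genes were not tested under stricter filters. Under the replicate block 9 NRF2 and glutathione genes, 4 CAR and PXR enzymes and 4 urea cycle genes rose, and 3 PPAR-alpha targets fell. Limma-voom called 7 CAR and PXR enzymes higher and 2 lower. The samples share only a number. Same-numbered KO and WT deviations correlated at −0.193 and −0.0769 in females and at 0.0427, −0.249 and −0.292 in males over 10146 genes. No sample correlated best with the sample of its own number. Deviations were taken from the group mean, so those of the 2 WT females mirror each other. The largest shift of the median log2 fold change over all genes under any scaling or filter was −0.0837. With 2 WT females and 3 libraries in each other group, and few low counts in WT males, changes of low-count genes rest least firmly on these data.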

Other observations

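Of 29 clotting and complement genes 4 rose and 0 fell in the pooled fit (4.38% and 2.73% of all genes). C9, the pore-forming complement component, had 209.7, 113 and 115 CPM in KO females and 272, 195 and 279 CPM in KO males, against 63.5 and 39.6 CPM in WT females and 111, 101 and 65.9 CPM in WT males (log2 fold change 1.46 ± 0.25, edgeR adjusted p = 0.00521). C2, a protease of the classical pathway, had 47.1, 38.7 and 49.2 CPM in KO females and 55.5, 50.6 and 67.04 CPM in KO males, against 32.2 and 25.5 CPM in WT females and 13.96, 9.93 and 13.4 CPM in WT males (log2 fold change 1.49 ± 0.28). Both genes had no overlap within either sex and kept their calls with every library left out, while C8b (log2 fold change 1.90 ± 0.47) and C1ra (0.92 ± 0.25) kept theirs in 5 and 2 of the 11 fits. Orm3, an acute-phase glycoprotein, had 90.6, 45.5 and 21.9 CPM in KO females and 111, 53.5 and 65.9 CPM in KO males, against 3.78 and 0.671 CPM in WT females and 11.4, 1.36 and 0.353 CPM in WT males (log2 fold change 4.33 ± 0.85, edgeR adjusted p = 0.0136). Its KO libraries all exceeded the WT libraries. It was the 1 of 20 acute-phase genes that rose, near the 4.38% of all genes. Mean log2(CPM + 1) over this list was 10.30 in KO female 1, against 7.48 to 8.30 in the other KO libraries and 6.25 to 8.56 in WT libraries.

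Lipoprotein genes had 2 of 18 members higher, Lpl and Scarb1, and 0 lower (4.38% and 2.73% of all genes). Scarb1, the HDL receptor, had 92.7, 85.9 and 262 CPM in KO females and 151, 140.3 and 226 CPM in KO males, against 58.7 and 89.9 CPM in WT females and 31.5, 43.02 and 37.7 CPM in WT males (log2 fold change 1.65 ± 0.35), with overlap in females and none in males. Of 18 lipogenic genes 1 rose, Thrsp (4.70 ± 1.19, call kept in 3 of the 11 fits), and 1 fell, Acacb (−1.03 ± 0.24), the mitochondrial acetyl-CoA carboxylase, which is also near those shares. Of 20 genes known to be higher in female liver 1 rose, Fmo2 (1.40 ± 0.31), and 2 fell (4.38% and 2.73% of all genes). The list's median log2 fold change was −2.09 in the pooled fit, −2.42 in females alone and 1.07 in males alone. At an unadjusted p under 0.05, 8 members were lower. Limma-voom called 8 lower and DESeq2 1, and the count was 0 without WT female 2 and 4 with the replicate block. The 2 that fell had no count in males of either genotype: Sult3a1 had 0.469, 0.05898 and 0 CPM in KO females, against 31.2 and 12.5 CPM in WT females, and Cyp3a44 had 1.46, 0 and 0.225 CPM in KO females, against 166 and 43.3 CPM in WT females. The pooled calls of this pair therefore come from the females. Single members were called on other lists as well: Tapbp of antigen presentation (0.81 ± 0.21), Jun of the immediate early genes (1.13 ± 0.28), Cxcl1 of the chemokines (1.79 ± 0.40), and the clock genes Ciart (2.69 ± 0.62) and Nfil3 (−1.56 ± 0.41).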
